A study of Rattus norvegicus with 9 samples.

Results

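Tnf, Il1b, Il6, Nfkbia, Nfkbiz, Tnfaip3, Lcn2, Vcam1, Icam1 and Nfkb2 are 10 genes that the transcription factor NF-kB is known to induce. They were followed in rat cultures of oligodendrocyte precursor cells (OPCs), the glial cells that differentiate into myelin-forming oligodendrocytes, with or without bavisant, which blocks the histamine H3 receptor. The genes were chosen by name as known targets, with earlier results of these data known. Each symbol had 1 row among the 32623 gene IDs, and 9 of the 10 passed the filter on low counts that left 15321 genes for testing. Il6 did not pass.

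RNA was sequenced from 9 libraries of wild-type rat brain OPCs, purified and kept for 5 days in differentiation medium. The groups were 3 basal libraries without the compound, 3 at 1 µM bavisant and 3 at 10 µM bavisant. The labels give no strain, age or number of animals. Each group held a library marked P11, P13 and P14. What P marks is not stated. The p-values measure the spread between these libraries or, where P is taken as a block, the spread left after differences between P numbers are removed.

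NF-kB proteins are held in the cytoplasm by inhibitors of the IkB family. Signals from TNF receptors, the interleukin 1 receptor and Toll-like receptors lead to destruction of the inhibitor, and the freed factor enters the nucleus and switches on cytokines, adhesion molecules and its own inhibitors. In the brain, microglia and astrocytes are known for this response.

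Library depth was 23.9 to 33.5 M reads (M, 1e+06) in basal cultures, 34.8 to 43.1 M at 1 µM and 38.0 to 39.3 M at 10 µM. Libraries with the same P number resembled each other, and the P11 libraries stood apart. Markers of mature oligodendrocytes were abundant in every library, at a summed 44365 to 54366 counts per 1e+06 reads (CPM) in basal cultures, 42908 to 54305 at 1 µM and 62233 to 71128 at 10 µM. OPC markers summed to 5309 to 6197 CPM over the 9 libraries. The cultures also held RNA of microglial and astrocyte markers, at 807 to 1192 and 2602 to 4238 summed CPM over the 9 libraries. In a bulk library, fewer cells of a type and less RNA per cell cannot be told apart.

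On the TPM scale, which allows for gene length, Lcn2 had the highest mean of the 10 genes, 70.6 TPM over the 9 libraries. It was also the most variable, at 2.36 to 199 TPM. Lcn2 encodes lipocalin 2, a secreted protein that binds bacterial iron carriers. Nfkbia averaged 65.5 TPM (39.9 to 94.4) and encodes IkB alpha, the classical inhibitor of NF-kB. Vcam1 averaged 52.2 TPM (27.3 to 72.9) and encodes an adhesion molecule that binds leukocyte integrins. The ranges of these 3 overlapped, so their order does not hold beyond the spread of the libraries. The place of Lcn2 came from P13 and P14. In P11 it had 2.47 TPM in basal cultures, 4.05 at 1 µM and 2.36 at 10 µM, under every value of the other genes but Tnf and Il6.

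By mean level, a middle set of 5 genes came next. Il1b, the cytokine interleukin 1 beta, averaged 19.8 TPM (11.3 to 27.2), just clear of the lowest Vcam1 value. Nfkbiz averaged 13.6 TPM (8.70 to 19.3) and encodes IkB zeta, a nuclear IkB protein that in mouse helps to switch on late targets such as Il6 and Lcn2. Nfkb2, which encodes the p100 precursor of the p52 subunit, averaged 12.9 TPM (11.1 to 15.8). Tnfaip3 averaged 12.8 TPM (8.77 to 15.4) and encodes A20, a ubiquitin-editing enzyme that shuts the pathway off. Icam1, an adhesion molecule for leukocyte integrins, averaged 11.2 TPM (7.13 to 17.5). These 5 overlapped one another in range.

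Tnf, the cytokine tumour necrosis factor, averaged 4.15 TPM (1.13 to 6.61), under every value of these 5 genes, Nfkbia and Vcam1 and overlapping the P11 values of Lcn2. Il6, the cytokine interleukin 6, was lowest, with a mean of 0.0869 TPM. It had 0, 2 and 1 reads in basal cultures, 2, 3 and 2 at 1 µM and 1, 1 and 0 at 10 µM, for P11, P13 and P14. None exceeded 3 reads, the limit that a count of 0 allows, so no difference in Il6 was detectable at this depth.

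**Figure D1:**
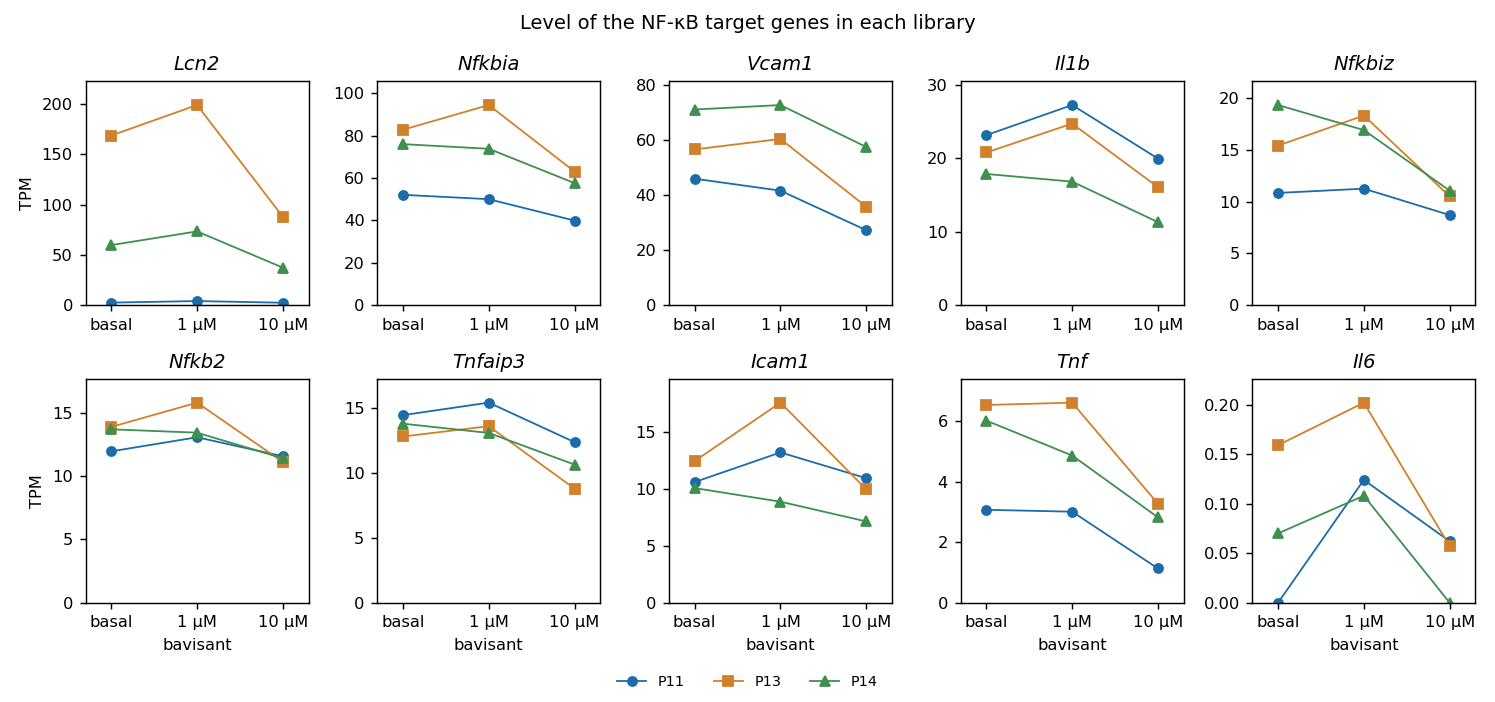
TPM of each of the 10 genes (vertical axes, linear and starting at 0) in basal cultures and at 1 and 10 µM bavisant (horizontal axes). Each point is 1 library, and lines join libraries of the same P number. For every gene but Icam1 and Il6 the 10 µM point is the lowest in TPM on all 3 lines, and the Lcn2 line of P11 lies near 0. In CPM, the scale of the tests, Nfkb2 in P11 was slightly higher at 10 µM (20.7) than in basal cultures (20.5).

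The P numbers differed more than the doses for several genes. The mean CPM of Lcn2 was 1.35 over the P11 libraries, 66.4 over P13 and 24.3 over P14, a 49.1-fold range. For Tnf the highest P mean was 2.19 times the lowest, and for Nfkb2 1.07 times. Lcn2 therefore had its dose values on 3 separate levels, and comparisons within a P number are given beside those between groups.

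At 10 µM, 5 of the genes were called lower than basal in the fit below that takes P as a block, and none without the block. The regions upstream of these 5 are shown because NF-kB acts through short kappa B sites there. They are the 250 bases before the annotated start in RefSeq, read 5′ to 3′ on the gene's strand, on build GRCr8, while the authors' build was rn6. Capitals mark a match to the 10-base kappa B consensus on either strand, and the rest is in lower case.
Tnf: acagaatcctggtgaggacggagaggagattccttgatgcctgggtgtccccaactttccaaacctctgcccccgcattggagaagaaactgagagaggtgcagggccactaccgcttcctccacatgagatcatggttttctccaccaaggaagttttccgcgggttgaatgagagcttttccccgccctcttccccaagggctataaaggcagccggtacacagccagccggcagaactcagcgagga
Nfkbia: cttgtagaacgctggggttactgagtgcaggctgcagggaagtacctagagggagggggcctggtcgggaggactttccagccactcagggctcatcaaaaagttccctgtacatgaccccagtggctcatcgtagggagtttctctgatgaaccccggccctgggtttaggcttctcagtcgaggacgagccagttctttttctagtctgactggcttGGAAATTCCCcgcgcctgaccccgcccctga
Nfkbiz: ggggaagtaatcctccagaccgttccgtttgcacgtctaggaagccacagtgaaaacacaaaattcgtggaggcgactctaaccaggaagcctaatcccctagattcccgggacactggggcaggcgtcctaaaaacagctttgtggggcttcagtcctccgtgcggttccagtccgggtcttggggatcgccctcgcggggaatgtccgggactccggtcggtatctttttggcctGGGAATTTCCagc
Lcn2: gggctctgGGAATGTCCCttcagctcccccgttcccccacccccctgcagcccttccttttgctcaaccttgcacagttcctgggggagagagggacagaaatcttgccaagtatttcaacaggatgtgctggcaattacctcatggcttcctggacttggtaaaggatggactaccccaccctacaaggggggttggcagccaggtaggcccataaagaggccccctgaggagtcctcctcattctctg
Vcam1: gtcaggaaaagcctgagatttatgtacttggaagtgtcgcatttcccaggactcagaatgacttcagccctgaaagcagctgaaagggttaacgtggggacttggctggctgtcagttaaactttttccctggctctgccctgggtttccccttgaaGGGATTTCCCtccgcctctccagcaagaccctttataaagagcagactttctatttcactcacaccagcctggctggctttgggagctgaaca

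Tnf lies at chr20:3626435-3626684 on the plus strand and Nfkbiz at chr11:58251471-58251720 on the plus strand. On the minus strand, the Nfkbia window is chr6:78597073-78597322, the Lcn2 window chr3:36081781-36082030 and the Vcam1 window chr2:206742784-206743033. The Nfkbiz match began 13 bases before the start, the Nfkbia match 31, the Vcam1 match 93 and the Lcn2 match 242. The Vcam1 match GGGATTTCCC reads as a match on both strands. The Tnf stretch held no match, which says only that these letters are not in this window.

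RefSeq windows were found for all 10 genes by symbol, each with 250 bases before and 50 after the start. Of these, 7 held a match in the 300 bases, against 2515 of 33469 windows in the whole table, or 7.51%. Tnfaip3 had 3 separate matches (GGGACACCCC, GGAAAGTCCC and GGAAATCCCC), Nfkb2 had GGGACTTTCC and Il6 had GGGATTTTCC. Il1b and Icam1, like Tnf, had none. The genes were chosen as known NF-kB targets, and a match describes letters and not binding.

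With 10 µM bavisant, 5 of the 9 tested genes were lower than in basal cultures in the fit that takes the P number as a block. They were the cytokine Tnf, the secreted protein Lcn2, the adhesion molecule Vcam1 and the IkB proteins Nfkbiz and Nfkbia, at 19.2% to 52.5% less RNA. In that fit 3.96% of all 15321 genes were called, 2.64% as lower and 1.32% as higher. The main fit was edgeR's quasi-likelihood test without the block, and the blocked fit was an alternative to it. Without the block, none of the 9 genes was called by that test, with adjusted p-values from 0.945, and 0% of all genes passed. Tnf alone had an unadjusted p under 0.05 (0.0497), as did 5.27% of all genes. DESeq2 with the block also called 5 of the 9 (6.29% of all genes) and none without it (0.418%), and limma on TPM with the block called 3 (Tnf, Nfkbia and Vcam1), among 2.89% of all genes called lower. The fitted values below are from the blocked fit unless another is named, since libraries of the same P number deviated together. All 9 log2 fold changes were negative, with a median of -0.36 against -0.01 over all tested genes.

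Among the cytokines, Tnf had 1.10, 3.21 and 2.63 CPM at 10 µM, against 2.91, 5.90 and 5.39 CPM in basal cultures, for P11, P13 and P14. The 10 µM value was the lower one in every P number, while the groups overlapped because basal P11 lay under 10 µM P13. The log2 fold change was -1.07 ± 0.16 (SE, n = 3 each; edgeR, adjusted p = 0.0177), the largest of the 9. Within P11, P13 and P14 the log2 difference was -1.36, -0.87 and -1.02.

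Il1b had 16.1, 13.1 and 8.59 CPM at 10 µM, against 18.2, 15.7 and 13.3 CPM in basal cultures. Here P11 was high and P14 low in both groups, the reverse of the order seen for Vcam1. The log2 fold change of -0.36 ± 0.10 did not pass (edgeR, adjusted p = 0.0801).

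Among the IkB proteins, Nfkbia had 32.9, 52.9 and 47.1 CPM at 10 µM, against 41.8, 62.9 and 59.4 CPM in basal cultures. The log2 difference was -0.34, -0.25 and -0.33 in P11, P13 and P14, an even shift under a 1.64-fold range between P numbers. Nfkbia fell by 0.31 ± 0.06 on the log2 scale (edgeR, adjusted p = 0.0328). Nfkbiz had 11.9, 14.7 and 15.4 CPM at 10 µM, against 14.5, 19.6 and 25.3 CPM in basal cultures. Its basal P11 value lay inside the range of the 10 µM libraries, and the other basal values lay above it. Nfkbiz fell by 0.48 ± 0.10 on the log2 scale (edgeR, adjusted p = 0.0438).

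Tnfaip3, the gene of A20, had 18.4, 13.1 and 14.97 CPM at 10 µM, against 21.0, 17.7 and 18.8 CPM in basal cultures. Only 10 µM P11 reached into the basal range. The log2 fold change of -0.32 ± 0.08 was as large as that of Nfkbia but did not pass (edgeR, adjusted p = 0.0622). With library totals in place of TMM scaling, which lowered the median of all genes too, it passed (adjusted p = 0.0400). The subunit gene Nfkb2 had 20.7, 19.9 and 19.3 CPM at 10 µM, against 20.5, 22.6 and 22.2 CPM in basal cultures. It was the least variable of the 10 genes, and its log2 fold change of -0.12 ± 0.07 did not pass (edgeR, adjusted p = 0.348).

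Lcn2 had 1.10, 41.1 and 16.4 CPM at 10 µM, against 1.11, 72.6 and 25.3 CPM in basal cultures. The P13 and P14 pairs differed by -0.82 and -0.62 on the log2 scale, and the P11 pair, near 1 CPM, by -0.02. Lcn2 fell by 0.67 ± 0.09 on the log2 scale (edgeR, adjusted p = 0.0164), and its difference was -0.71 without the P11 libraries (edgeR, adjusted p = 0.0460). It was the only one of the 9 still called without them, where Tnf had -0.94 and adjusted p = 0.0673.

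Of the adhesion molecules, Vcam1 was called and Icam1 was not. Vcam1 had 44.0, 60.9 and 90.5 CPM at 10 µM, against 73.7, 86.8 and 108 CPM in basal cultures. P14 was the highest and P11 the lowest in both groups, and the difference was -0.74, -0.51 and -0.26 in P11, P13 and P14. Vcam1 fell by 0.50 ± 0.09 on the log2 scale (edgeR, adjusted p = 0.0263). Icam1 had 17.5, 15.9 and 10.8 CPM at 10 µM, against 16.4, 18.4 and 14.7 CPM in basal cultures. It was slightly higher at 10 µM in P11 and lower in P13 and P14, and its log2 fold change of -0.19 ± 0.14 did not pass (edgeR, adjusted p = 0.442). Whether the change in Vcam1 differed from that in Icam1 was not tested.

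Of the 9 genes, 7 were lower at 10 µM in all 3 P numbers, as were 24.3% of all tested genes. Nfkb2 and Icam1 were the exceptions. The CPM values of the 10 µM and basal groups overlapped for all 9. All 5 calls needed every basal library. Without any 1 of the 3 basal libraries no member was called in the blocked fit. Without 10 µM P14 or 10 µM P13 1 member was called each time, without 1 µM P11 there were 2, and without 1 µM P14 there were 3. A blocked fit on the 6 compared libraries alone called no gene at all, and the adjusted p of Tnf was then 0.0704.

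**Figure D2:**
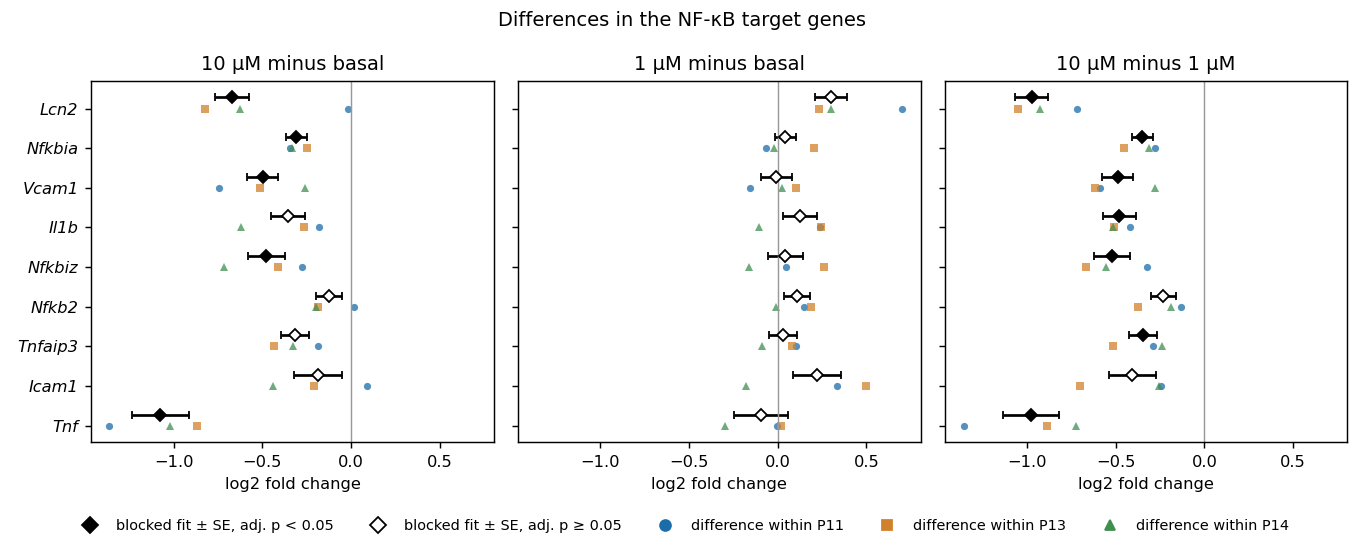
Log2 fold changes (horizontal axes) of the 9 tested genes in the 3 comparisons (panels). Diamonds with bars are the blocked fit ± SE, filled where the adjusted p was under 0.05, and the small symbols are the differences within P11, P13 and P14. At 10 µM minus basal the diamonds run from -1.07 (Tnf) to -0.12 (Nfkb2), and at 1 µM minus basal no diamond is filled.

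At 1 µM bavisant, no member was called against basal cultures, with the block or without it. All adjusted p-values were 0.9998 or above in edgeR's quasi-likelihood test, and 0% of all genes were called in both fits. At an unadjusted p under 0.05 the blocked fit had 582 of 15321 genes (3.8%) and the fit without the block 81 (0.529%). DESeq2 called 8 genes with the block (0.0522%) and 5 without (0.0326%), none of them members.

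Tnf had 2.90, 5.98 and 4.37 CPM at 1 µM, against the 2.91, 5.90 and 5.39 CPM of basal cultures. Only the P14 pair was apart. The log2 fold change was -0.10 ± 0.15. Vcam1 had 66.2, 93.3 and 110 CPM at 1 µM and a log2 fold change of -0.01 ± 0.09. Both genes thus had fitted differences smaller than their errors.

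The other 7 genes had positive log2 fold changes at 1 µM that did not pass. Lcn2 had 1.85, 85.4 and 31.2 CPM at 1 µM, each above the basal value of its P number. Its log2 fold change of 0.30 ± 0.09 was the only one of the 9 with an unadjusted p under 0.05 (edgeR, 0.0102; adjusted p = 0.9998). Icam1 had 20.7, 25.9 and 12.98 CPM, higher than basal in P11 and P13 and lower in P14, with 0.22 ± 0.13.

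Il1b had 21.5, 18.6 and 12.3 CPM at 1 µM and a log2 fold change of 0.12 ± 0.10. Nfkb2 had 22.7, 25.8 and 22.0 CPM and 0.11 ± 0.07. In both, P11 and P13 lay above basal and P14 below it. The IkB genes Nfkbia and Nfkbiz and the A20 gene Tnfaip3 stayed close to basal. Nfkbia had 39.9, 72.5 and 58.5 CPM, Nfkbiz 14.9, 23.4 and 22.6 CPM and Tnfaip3 22.5, 18.8 and 17.7 CPM at 1 µM. Their log2 fold changes were 0.04 ± 0.06, 0.04 ± 0.10 and 0.03 ± 0.08. The median over the 9 genes was 0.04, and over all tested genes 0.00.

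Set against 1 µM instead of basal cultures, 10 µM bavisant gave 7 lower members and none higher in the blocked fit, in which 4.3% of all genes were called, 3% lower and 1.31% higher. DESeq2 with the block called 7 members too (6.44% of all genes) and without it none (0.431%), and limma on TPM with the block called 6, among 2.67% of all genes called lower. This comparison uses the same 10 µM libraries as the one with basal cultures, so the pair are not independent. The values per library are those given above, and all 9 genes were lower at 10 µM in all 3 P numbers, as were 21.9% of all genes. Lcn2 fell by 0.97 ± 0.09 and Tnf by 0.98 ± 0.16 on the log2 scale (edgeR, adjusted p = 0.0123 and 0.0225).

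Nfkbia fell by 0.35, Vcam1 by 0.49 and Nfkbiz by 0.52 on the log2 scale (edgeR, adjusted p = 0.0228, 0.0265 and 0.0331). Il1b, which missed the threshold against basal cultures, fell by 0.48 ± 0.09 (adjusted p = 0.0344), and Tnfaip3 by 0.35 ± 0.08 (adjusted p = 0.0463). Tnfaip3 lost its call whichever library was left out. Icam1 (-0.41 ± 0.13, adjusted p = 0.129) and Nfkb2 (-0.23 ± 0.07, adjusted p = 0.115) did not pass. The CPM values of Nfkb2 did not overlap between 10 µM and 1 µM, which held in the lower direction for 4.36% of all genes. No member was called by edgeR without the block, where 0% of all genes passed and Nfkb2 alone had an unadjusted p under 0.05 (4.68% of all genes), or in the blocked fit without 1 µM P11, 1 µM P14 or 10 µM P14. Without 1 µM P13 or 10 µM P13 there was 1 member called.

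Mean log2 CPM was intermediate in basal cultures, highest at 1 µM and lowest at 10 µM for 7 of the 9 genes, an order held by 19.9% of all genes. Tnf and Vcam1 had basal values at or slightly above those at 1 µM. The single library 1 µM P13 held the highest CPM of Tnf, Nfkbia, Lcn2, Icam1 and Nfkb2, but not of Il1b, Nfkbiz, Tnfaip3 or Vcam1. The 1 µM difference passed for none of the 9, so no order between basal and 1 µM can be read from it.

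The rest of the pathway was described from lists by role. Over all tested genes, the blocked fit called 2.64% lower at 10 µM than in basal cultures, with a median log2 fold change of -0.01. Of 18 tested receptors and adaptors upstream of NF-kB, 4 were lower at 10 µM than in basal cultures and none was higher, with a median log2 fold change of -0.19. They were both TNF receptors, Toll-like receptor 2 and its co-receptor Cd14. Tnfrsf1b had 9.31, 8.70 and 7.86 CPM at 10 µM, against 12.6, 14.5 and 14.4 CPM in basal cultures. Its log2 fold change was -0.68 ± 0.10 (edgeR, adjusted p = 0.0164).

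Tnfrsf1a had 56.1, 63.9 and 57.5 CPM at 10 µM, against 65.8, 77.2 and 67.1 CPM in basal cultures. Its log2 fold change was -0.24 ± 0.04 (adjusted p = 0.0270). Tlr2 had 27.0, 26.2 and 21.0 CPM at 10 µM, against 30.3, 36.0 and 28.6 CPM in basal cultures, and Cd14 13.9, 15.7 and 10.9 CPM, against 17.1, 25.2 and 17.0 CPM. The groups did not overlap for 8 of the 18 genes of this list, each lower at 10 µM, which held for 4.61% of all genes. The other 4 were the receptor Tlr4, the adaptor Myd88 and the kinases Irak1 and Ripk1, which were not called. Tlr2 fell by 0.36 ± 0.07 and Cd14 by 0.54 ± 0.09 on the log2 scale (edgeR, adjusted p = 0.0378 and 0.0263). None of these 4 was called without the P11 libraries, where the adjusted p was 0.0602 for Tnfrsf1b and Cd14, 0.0682 for Tlr2 and 0.135 for Tnfrsf1a. With 1 library left out, the blocked fit called Tnfrsf1b and Cd14 in 4 of 9 runs, Tlr2 in 2 and Tnfrsf1a in 1. Without the block, edgeR and limma called no gene of the 6 pathway lists in any comparison. DESeq2 without the block called Tnfrsf1b alone, at 10 µM against basal (adjusted p = 0.000131) and at 10 µM against 1 µM (adjusted p = 0.0045).

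The machinery itself was not called. Of 14 tested subunits and kinases none passed at 10 µM against basal cultures, with 12 negative log2 fold changes and a median of -0.10. Of 12 further inhibitors and feedback genes none passed either, with 10 negative and a median of -0.15. Ikbke had the smallest p of the 14 subunits and kinases, with a log2 fold change of -0.44 ± 0.11 (edgeR, adjusted p = 0.0591). Rela, which encodes the p65 subunit, was among the few that were not negative. Rela had 59.6 ± 3.6 CPM at 10 µM and 58.2 ± 2.4 CPM in basal cultures (SD, n = 3 each). Its log2 fold change was 0.03 ± 0.05 (edgeR, adjusted p = 0.701).

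Of 26 other known targets tested, 2 were lower at 10 µM and none was higher. Of their log2 fold changes 24 were negative, with a median of -0.25. This list shared genes with the subunit, inhibitor and cytokine lists, Nfkb1 and Csf1 among them, so the counts of the lists are not separate. Mmp9, a matrix metalloprotease, had 8.57, 3.001 and 1.64 CPM at 10 µM, against 25.3, 7.36 and 8.84 CPM in basal cultures, and fell by 1.75 ± 0.24 on the log2 scale (edgeR, adjusted p = 0.0164). Csf1, the growth factor that sustains microglia and macrophages, had 37.0, 80.1 and 103 CPM at 10 µM, against 48.7, 103 and 120 CPM in basal cultures, and fell by 0.32 ± 0.05 (adjusted p = 0.0208). Of the 9 runs with 1 library left out, 6 called Mmp9 and 5 called Csf1. Csf1 was also the only one called among 12 tested cytokine ligands and receptors (all 12 negative, median -0.35). Of 9 tested chemokines, Cx3cl1, whose receptor marks microglia, was called lower (-0.30 ± 0.06, adjusted p = 0.0367), in 1 of the 9 such runs as well, while all 9 were negative and the list median was the lowest of the 6 at -0.68. Without the P11 libraries the adjusted p was 0.0673 for Mmp9, 0.107 for Csf1 and 0.165 for Cx3cl1.

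At 1 µM no gene of any of these 6 lists was called against basal cultures, with medians of -0.01 to 0.21. At 10 µM against 1 µM, where 3% of all genes were called lower, the lists again had lower calls only. Called were 1 of 14 tested subunits and kinases, 0 of 12 inhibitors and 5 of 18 receptors and adaptors. The other lists had 2 of 12 cytokines and receptors, 6 of 26 other targets and 3 of 9 chemokines called. The chemokines were Cx3cl1, Ccl2 (-1.20 ± 0.25, adjusted p = 0.0375) and Ccl7 (-1.31 ± 0.29, adjusted p = 0.0455). Both Ccl genes encode attractants of monocytes. Ccl2 had 2.22, 7.23 and 4.40 CPM at 10 µM, against 4.0, 26.2 and 7.08 CPM at 1 µM, for P11, P13 and P14, and Ccl7 1.71, 2.82 and 1.77 CPM, against 3.15, 11.8 and 2.98 CPM. In both the 1 µM P13 library lay far above the others. Without it the log2 fold change was -0.74 for Ccl2 (adjusted p = 0.0566) and -0.80 for Ccl7 (adjusted p = 0.0848). The same library stood out for Cxcl10, Cfb, Tap1 and Psmb9, at 25.1, 12.3, 33.7 and 13.8 CPM. No other library exceeded 5.82, 3.12, 17.1 and 7.59 CPM for these genes. Other listed genes, Ccl3 and Ccl20 among them, were not highest there. With 1 library left out, the blocked fit called Ccl2 in 1 of 9 runs and Ccl7 and Cx3cl1 in 0. The subunit was Nfkb1, which encodes the p105 precursor of p50 (-0.27 ± 0.05, adjusted p = 0.0355), and the added receptor gene was the adaptor Myd88 (-0.43 ± 0.08, adjusted p = 0.0327). Among the other targets, Plau, Psmb9, Cd44 and Nfkb1 joined Mmp9 and Csf1. Of the 9 runs, 3 called Myd88, 2 each Nfkb1 and Plau, 1 Cd44 and 0 Psmb9.

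**Figure D3:**
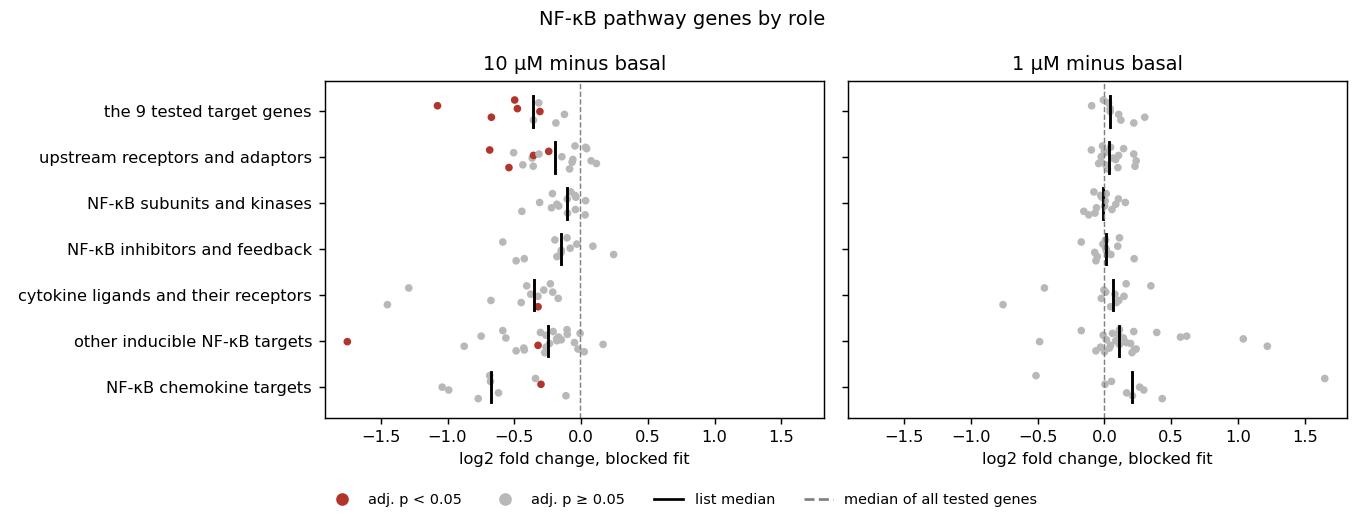
Log2 fold changes of the blocked fit (horizontal axes) for the 9 tested target genes and 6 lists of the NF-kB pathway (rows), at 10 µM minus basal (left) and 1 µM minus basal (right). Each point is a gene, red where the adjusted p was under 0.05, with black bars for list medians and a dashed line for the median of all tested genes. The left panel holds red points in 5 of the 7 rows, all below 0, and the right panel none.

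Markers of several cell types were also called at 10 µM in the blocked fit. Over all genes that fit called 2.64% lower and 1.32% higher against basal cultures, and 3% lower and 1.31% higher against 1 µM. Without the block, edgeR and limma called no marker, and DESeq2 called Mbp and Olig1 against basal cultures (adjusted p = 2.93e-05 and 0.00361) and Mbp against 1 µM (adjusted p = 0.000222). No marker called against basal cultures in the blocked fit was called without the P11 libraries. Of 19 microglial markers, 2 were lower than in basal cultures and none was higher, with 18 negative log2 fold changes and a median of -0.18. Itgam had 20.8 ± 2.1 CPM at 10 µM and 29.0 ± 4.7 CPM in basal cultures (log2 fold change -0.47 ± 0.06, edgeR, adjusted p = 0.0139), and Cd68 fell by 0.26 ± 0.05 (adjusted p = 0.0341). With 1 library left out, Itgam was called in 5 of 9 runs and Cd68 in 2. Csf1r (-0.14 ± 0.09, adjusted p = 0.372) and Cx3cr1 (-0.07 ± 0.10, adjusted p = 0.727) did not pass. The summed microglial markers had 807 to 1145 CPM in basal cultures, 927 to 1192 CPM at 1 µM and 813 to 979 CPM at 10 µM.

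Within P numbers the microglial sum at 10 µM differed from basal by 0.787% in P11, -14.4% in P13 and -18.2% in P14. In P11, where it was level at 813 CPM against 807 CPM, Tnf differed by -1.36 and Vcam1 by -0.74 on the log2 scale, and Lcn2 by -0.02. The called markers were lower in P11 too, Itgam with 18.5 CPM at 10 µM and 23.5 CPM in basal cultures and Cd68 with 39.0 CPM and 46.7 CPM. At 10 µM against 1 µM the sum was lower in P11, P13 and P14, with differences of -12.3%, -17.8% and -26.7%, and 7 of the 19 markers were called lower, with all 19 log2 fold changes negative and a median of -0.33. What part the microglial RNA had in the result was not tested.

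Astrocyte markers had 3 of 12 lower at 10 µM than in basal cultures, namely the transporters Slc1a2, Slc1a3 and Slc4a4, and a sum lower by 24.5%, 14% and 10.9% in P11, P13 and P14. That sum was 3448 to 4025 CPM in basal cultures, 3152 to 4238 CPM at 1 µM and 2602 to 3586 CPM at 10 µM. Gfap did not pass (-0.20 ± 0.05, edgeR, adjusted p = 0.0650). Log2 fold changes were negative for 5 of 7 tested endothelial markers, all 8 mural and fibroblast markers and all 10 neuronal markers. Called lower were 1 endothelial marker (Eng), 1 mural and fibroblast marker (Notch3) and 4 neuronal markers (Gad1, Gad2, Stmn2 and Slc32a1). These calls were uneven with 1 library left out. Slc4a4 and Gad1 were called in 7 of 9 runs each, Eng, Gad2 and Stmn2 in 5, Slc1a2, Notch3 and Slc32a1 in 1 and Slc1a3 in 0. Endothelial sums were 33.4 to 79.2 CPM in basal cultures, 37.3 to 86.7 CPM at 1 µM and 24.8 to 63.9 CPM at 10 µM, and Cdh5 did not pass (-0.47 ± 0.13, adjusted p = 0.0855). Mural and fibroblast sums were 282 to 1565 CPM in basal cultures, 316 to 1590 CPM at 1 µM and 227 to 1175 CPM at 10 µM, and neuronal sums 377 to 646 CPM in basal cultures, 326 to 584 CPM at 1 µM and 308 to 498 CPM at 10 µM. Of 11 markers of T cells, B cells and neutrophils only 2 had enough reads to test, and Cd3d, Ms4a1, S100a9 and Mpo had no read in any of the 9 libraries.

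Oligodendrocyte markers went the other way, with 6 of 10 higher at 10 µM than in basal cultures and a sum higher by 30.8%, 42.9% and 23.9% in P11, P13 and P14. Mbp, a main protein of myelin, had a log2 fold change of 0.54 ± 0.07 (edgeR, adjusted p = 0.0125). Of the 9 genes listed as OPC markers, Olig1 and Olig2 were called higher and none was called lower. The list was mixed, with 3 negative log2 fold changes and a median of 0.18, so these calls do not describe OPC markers as a group. With 1 library left out, Mbp was called in 7 of 9 runs, Olig1 in 4 and Olig2 in 1. CPM values are shares of a library, and how far the higher oligodendrocyte share enters the lower shares of the target genes was not tested. Library totals in place of TMM cannot decide this, since they shift the whole set of genes downward. The median of all genes in the blocked fit was then -0.06, against -0.01 with TMM. All 9 target genes, already negative with TMM, stayed negative.

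**Figure D4:**
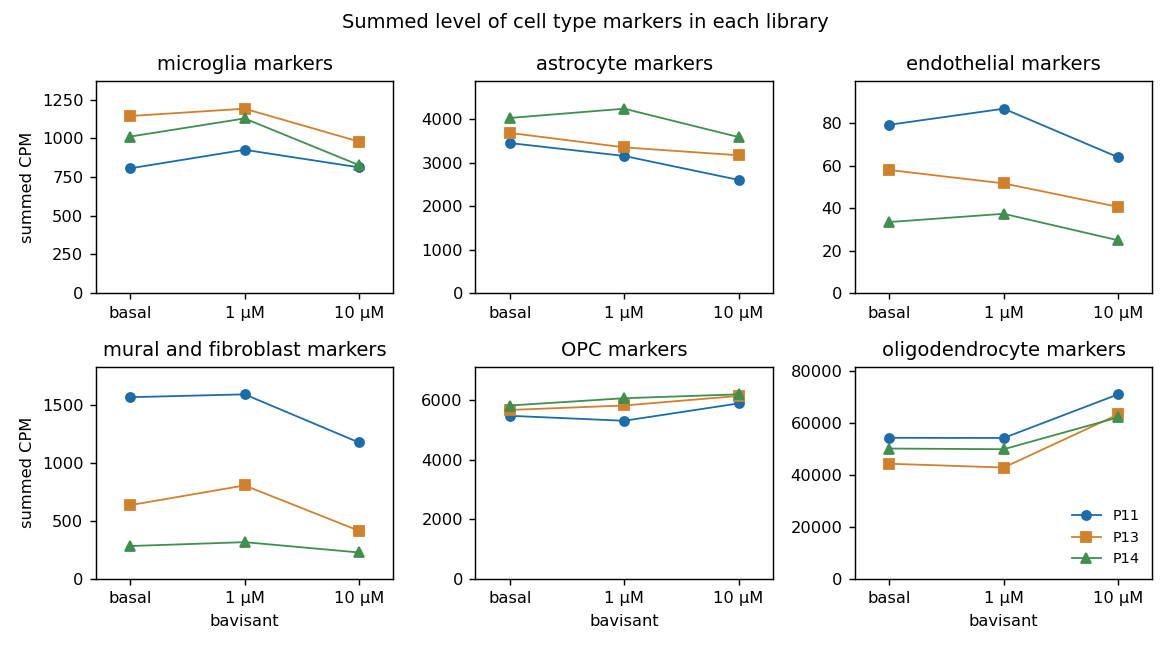
Summed CPM of the marker lists of 6 cell types (vertical axes, linear and starting at 0) in basal cultures and at 1 and 10 µM bavisant (horizontal axes). Each point is 1 library, and lines join libraries of the same P number. The oligodendrocyte sums are higher at 10 µM on all 3 lines, the astrocyte sums lower on all 3, and the microglial sum of P11 is level between basal and 10 µM.

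The genes most like each member were sought by Pearson's r of log2 CPM, centred within each P number, over the 9 libraries and 11690 genes of at least 2 CPM. These r describe points that share libraries and depth, and are the highest of 11690 for each gene. Without centring, the same pairs had r of -0.54 (Vcam1 with Edil3) to 0.96 (Nfkb2 with Ifi47). Nucb2 and Cap2 came nearest to Tnf (both 0.988), Csf2rb (0.990) and Ctsz (0.987) to Lcn2, and Adgrl2 and Edil3 to Vcam1 (both 0.989). Nearest to Nfkbia were Pgm2 (0.989) and Strip2 (0.988), to Nfkbiz Calhm2 (0.992) and Bid (0.987), and to Tnfaip3 Il4r and Nrp2 (both 0.992). Nearest to Il1b were Rhbdf2 (0.983) and Rgs4 (0.982), to Icam1 Slfn2 (0.978) and Plpp1 (0.973), and to Nfkb2 Ifi47 (0.993) and Cybb (0.985).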

How the data were processed

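RNA was measured in 9 libraries of rat OPC cultures. Per the labels' protocols, RNA was extracted with RNeasy columns and sequenced from Illumina Stranded mRNA Prep libraries as 75-base pairs on an Illumina NextSeq. The submitters' processing notes name FastQC, Trimmomatic, DRAGEN, Picard and build rn6. The counter, strand setting and gene models are not stated there or in the labels. The lower dose is 1 µM by the treatment label, as used here, but 1 mM in a protocol text.

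The authors deposited estimated counts (expected counts) per gene, 92.4% to 93% of them whole numbers, and a table of TPM, which is scaled by gene length and library. Of 32623 IDs in these tables, 399 had no gene name. The counts were rounded and tested with the quasi-likelihood test of edgeR 4.0.16 (R 4.3.3) on all 9 libraries with TMM factors and filterByExpr (minimum count 10, minimum total 15). P-values were adjusted by Benjamini-Hochberg over 15321 genes, and an adjusted p under 0.05 was called. DESeq2 1.42.0 and limma 3.58.1 on log2(TPM + 1) were alternatives. CPM use TMM-scaled totals, and log2 differences within a P number a prior count of 2. The floor of 3 reads covers counting error only.

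The P number was added as a replicate block in a second fit. The pairing was checked from deviations from group means: all 9 same-number pairs had r of 0.319 to 0.772, and the 18 pairs sharing neither number nor group -0.708 to 0.193. The 9 pairs within a group, whose deviations sum to 0, had -0.788 to -0.067. The labels do not say what the number marks. The common dispersion was 0.0675 without and 0.00696 with the block.

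The 10 genes, the lists and the rule for named genes were chosen with earlier results of these data known. The rule names all 10, called genes of each list by smallest p, fixed markers, and the 2 nearest genes of each member. Named outside this rule were Rela, Ikbke, Tlr4, Irak1, Ripk1, Cxcl10, Cfb, Tap1, Ccl3, Ccl20, Cd3d, Ms4a1, S100a9 and Mpo. Pecam1, a fixed marker, was not analysed here. Upstream sequences are from RefSeq (GRCr8), matched by symbol. No genome of build rn6 was used here.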

Additional observations from a re-analysis of the deposited data

How the results depend on the processing

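Without the replicate block, edgeR called 0 genes in each comparison under TMM factors, size factors, library totals, no count filter or the compared groups alone, as did limma on log2(TPM + 1), while DESeq2 called 64, 5 and 66 genes (10 µM against basal, 1 µM against basal, 10 µM against 1 µM) and 0 members. With the replicate block (the pairing by P number), the 10 µM comparisons with basal and with 1 µM called 607 and 659 genes and 5 and 7 members. The block with DESeq2 size factors gave 609 and 656 genes (5 and 7 members), with library totals 834 and 926 (6 and 7), with DESeq2 964 and 987 (5 and 7, and 8 genes at 1 µM against basal), with limma on log2(TPM + 1) 502 and 453 (3 and 6), with a pseudocount of 0.1 506 and 433 (4 and 6), and without a count filter 715 and 760 (5 and 7). The main fit was edgeR without the block. With the block, the share of lower calls was 66.7% and 69.7% in edgeR with TMM factors, 84.3% and 87.4% with library totals, and 82.9% and 84.5% with limma. With the compared groups alone the block called 0 genes. Without all P11 libraries it called 10 and 110 genes and 1 member each (Lcn2). Leaving out 1 library with the block gave 0 to 581 genes and 0 to 5 members for 10 µM against basal, 0 to 2 genes and 0 members for 1 µM against basal, and 0 to 651 genes and 0 to 6 members for 10 µM against 1 µM. Without the block it gave 0 throughout. Of 891 alternative values for members, 122 passed the threshold that none passed in the fit without the block, and no passing value changed direction. For 10 µM against basal 295 of 297 were negative. The exceptions, without the block, were Lcn2 without basal P13 (0.55) and Icam1 without 10 µM P14 (0.02). For 10 µM against 1 µM 296 of 297 were negative, all but Lcn2 without 1 µM P13 (0.24). Of the 10 genes, only Il6 was at the floor that depth sets. The causes were not tested.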
